A study of Mus musculus with 564 samples.

Results

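Janus kinase (JAK) inhibitors are small molecules that block the kinases bound to cytokine receptors, and 6 of them were among the clinical kinase inhibitors (CKIs) given to mouse bone marrow-derived macrophages (BMDMs) before stimulation. The members are BMS911543, Filgotinib, Momelotinib, Pacritinib, Ruxolitinib and Tofacitinib, and all libraries whose name starts with one of these compounds were taken. They make up 58 of the 564 H3K27ac ChIP-seq libraries of the series, beside 488 libraries of 52 other CKIs and 18 of the solvent DMSO. H3K27ac, the acetylation of lysine 27 of histone H3, marks active promoters and enhancers, and its reads were counted over 59190 cis-regulatory elements (CREs).

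All groups shared wild-type BMDMs, cells grown from bone marrow precursors, and a pre-treatment of 1 h with a CKI or DMSO. The cells were then left untreated (UT) or received LPS or IL-4 at 10 ng/mL for 30 min, 1 h, 2 h or 4 h. For the UT libraries the labels give conflicting times. Each member had 1 library per stimulus and time, apart from a second UT library for BMS911543, Filgotinib, Momelotinib and Ruxolitinib. The compound is therefore the replicate in every comparison of the JAK inhibitors together, and the labels do not say whether compounds were tested on cells of separate animals. DMSO had 2 libraries per condition.

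The members differ in structure and in the kinase they were designed for. Tofacitinib and Ruxolitinib share a pyrrolopyrimidine core and were designed against JAK3 and against JAK1 and JAK2, respectively. Pacritinib, a macrocycle, is directed at JAK2 and FLT3, Filgotinib, a triazolopyridine, at JAK1, Momelotinib, an anilinopyrimidine, at JAK1 and JAK2, and BMS911543 at JAK2. The study set 1 concentration per compound from its binding to a kinase or other protein selected for that compound in cell lysate. The selected protein was a JAK family kinase only for Ruxolitinib (JAK2) and Pacritinib (TYK2). It was NQO2 for BMS911543, IRAK1 for Filgotinib and IKBKE for Momelotinib. The concentrations thus differ between members, so their values are set side by side and no pair of members is tested against each other.

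IL-4 binds a receptor that signals through JAK1 and JAK3 to the transcription factor STAT6, which switches on the genes of alternatively activated macrophages. LPS acts first through TLR4 and NF-kB without a JAK. It then induces interferon-beta, whose receptor uses TYK2 and JAK1 to activate a STAT2-containing complex, which binds the interferon-stimulated response element (ISRE) of the interferon-stimulated genes (ISGs). Resting macrophages also keep a low tonic interferon signal, so ISG promoters carry H3K27ac before any stimulus.

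The libraries of the members were shallow and uneven. The reads behind the CREs, estimated from the spacing of the low values, numbered between 469412 and 6733140 in a library. The median library of BMS911543 had 1125517 and that of Tofacitinib 4309909. Contrast, the median value of the 10% highest CREs over that of the 10% lowest, was 4.51 to 51 in the members, 3.34 to 67.2 in the other CKIs and 53 to 134 in DMSO. The lowest contrasts among the members were 4.51 for Momelotinib with IL-4 at 4 h and 5.66 for Pacritinib with LPS at 4 h. Columns of the table fell into 6 runs of neighbouring compounds. BMS911543 and Filgotinib were in the run with the lowest depth, Pacritinib and Tofacitinib shared another, and Momelotinib and Ruxolitinib were each the only member of theirs. Members were therefore compared with the other CKIs of their own run, and the other CKIs, not DMSO, are the main reference because the DMSO libraries all had a higher contrast than the members. The other CKIs include Apitolisib, which the study used to target JAK1, and TG100572, used at its concentration for TYK2 and in the run of Ruxolitinib. They also include Midostaurin, in the run of Momelotinib. The study, which measured RNA against DMSO under LPS, reports reduced Ifnb1 and ISG expression for both of these compounds. It reports raised Ifnb1 for Tofacitinib and effects on interferon-regulated genes for all 6 members. All 8 macrophage markers had a promoter CRE, with summed values of 3686 to 8382 normalized reads in the members and 5919 to 8432 in DMSO. Of 11 markers of other cell types, 4 had one (Cdh5, Elane, Col1a1 and Hbb-bt), with summed values of 210 to 565 and 250 to 601.

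Under IL-4, averaged over the 4 times, 3 CREs were lower with the JAK inhibitors than with the other CKIs, all of them in 6 of 6 members. They lay in the intergenic region nearest Gvin1, a very large interferon-inducible GTPase, at the promoter of Ube2l6, the conjugating enzyme of the ubiquitin-like protein ISG15, and inside Rnf4, a ubiquitin ligase that recognizes SUMO chains. The Gvin1 element was lowered by 0.49 on the log2(value + 5) scale (SE 0.08), the Ube2l6 promoter by 0.32 (SE 0.06) and the Rnf4 element by 0.59 (SE 0.11). Their adjusted p was 0.00248, 0.036 and 0.036 (limma, Benjamini-Hochberg, 6 members against 47 other CKIs with all 4 times). The call rate was 0.00507% of 59156 CREs tested, and no CRE was called higher. Of 16 alternative settings, which include leaving out each member, 13 kept the call of the Gvin1 element, 8 that of Ube2l6 and 7 that of Rnf4, with an adjusted p of up to 0.904 for Gvin1 and up to 1 for Ube2l6 and Rnf4.

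A stretch of each element is shown in mm10 sequence from the plus strand, with the letters of the motifs that JAK signaling acts through in capitals. The motifs searched were TTCNNNGAA for STAT factors, TTCNNNNGAA for the wider spacing that STAT6 prefers, and GAAANNGAAA for the ISRE, each on both strands. A match describes letters only, and nothing is read from their presence in all 3 elements.
Gvin1 element, chr7:106236843-106236962: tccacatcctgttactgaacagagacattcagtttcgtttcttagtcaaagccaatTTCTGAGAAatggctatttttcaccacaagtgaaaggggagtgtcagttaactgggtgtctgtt
Rnf4 element, chr5:34342020-34342139: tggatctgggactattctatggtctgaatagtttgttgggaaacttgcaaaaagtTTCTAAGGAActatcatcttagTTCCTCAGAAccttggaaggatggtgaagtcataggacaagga
Ube2l6 promoter CRE, chr2:84799284-84799403: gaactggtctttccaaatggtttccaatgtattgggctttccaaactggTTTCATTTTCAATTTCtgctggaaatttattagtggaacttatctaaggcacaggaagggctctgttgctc
The Gvin1 stretch holds 1 STAT motif, 167 bases from the centre of its CRE. The Rnf4 stretch, in an intron of Rnf4, holds 2 motifs of STAT6 spacing, the nearer one 8 bases from the centre, and the whole CRE holds 3. The Ube2l6 stretch, in an intron of Ube2l6, holds 2 overlapping ISRE matches on the minus strand, 3 bases from the centre. In the central 1000 bp of all CREs tested, STAT motifs were found in 27.3%, motifs of STAT6 spacing in 25.1% and ISRE motifs in 14.5%. The letters GAGGAA of PU.1, a transcription factor of macrophages, also lie in each of the 3 elements, at 4 places in Gvin1, 2 in Rnf4 and 3 in Ube2l6.

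The Gvin1 element (chr7:106235659-106237813, 20333 bases from the nearest transcription start) was induced by IL-4 in DMSO, from 481 and 466 normalized reads in UT to 1466 and 1241 at 4 h. At 1 h of IL-4 it held 297 normalized reads with BMS911543, 215 with Filgotinib, 311 with Momelotinib, 912 with Pacritinib, 170 with Ruxolitinib and 813 with Tofacitinib, against 985 and 1140 in DMSO. Pacritinib and Tofacitinib lay close to DMSO at this time and the other members far below it. Averaged over the 4 times, BMS911543 reached 312 and Filgotinib 237 normalized reads, against 486 in the 7 other CKIs of their run, whose lowest value was 356. Momelotinib was at 430 against 581, Ruxolitinib at 370 against 514 and Tofacitinib at 602 against 778. Pacritinib, at 751 against 778, lay inside the range of the others of its run. Filgotinib was the lowest and BMS911543 the third lowest of 53 CKIs at this element, each taken relative to its run. In UT the members held 155 to 305 normalized reads and the difference from other CKIs was -0.25, with an adjusted p of 1. With LPS at 2 h and 4 h the difference was 0.01, but the difference between the IL-4 and the LPS effect did not pass the test either (adjusted p = 0.508 by limma). The promoter CRE of Gvin1 itself was at -0.18 under IL-4, with 4 of 6 members lower and an adjusted p of 1.

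The Rnf4 element (chr5:34341316-34342828, overlapping an untranslated exon, 4384 bases from the nearest start) showed an early IL-4 response in DMSO, from 15 and 20 normalized reads in UT to 161 and 143 at 30 min. At 1 h of IL-4 the members held 53 (BMS911543), 28 (Filgotinib), 51 (Momelotinib), 80 (Pacritinib), 19 (Ruxolitinib) and 84 (Tofacitinib) normalized reads, and DMSO held 143 and 157. All 6 members were thus below both DMSO libraries, and below the median of 103 in the other CKIs. The difference from the other CKIs of the run at 1 h was -1.15 (SE 0.19, adjusted p = 0.00203 by limma), and it ran from -0.60 for Tofacitinib to -2.22 for Ruxolitinib. At 30 min the difference was -0.67 and at 2 h -0.62, neither called, and at 4 h it was -0.01, when DMSO itself had gone down to 54 and 60. Over the 4 times 5 of 6 members lay below every other CKI of their run, the exception being BMS911543.

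The Ube2l6 promoter CRE (chr2:84797432-84801262) responded mainly to LPS in DMSO, from 180 and 188 normalized reads in UT to 1509 and 1504 at 2 h. Under IL-4 it stayed between 202 and 310 in DMSO. Averaged over the IL-4 times, BMS911543 held 166 and Filgotinib 177 normalized reads, against 238 in the others of their run, and Momelotinib 239 against 312. Tofacitinib held 333 and Pacritinib 393 against 429, and Ruxolitinib 297 against 325. BMS911543, Filgotinib, Momelotinib and Tofacitinib were the 4 lowest of 53 CKIs relative to their runs. Relative to DMSO, whose libraries had the higher contrast, the members stood at -0.02 under IL-4 (SE 0.25, adjusted p = 0.952 by limma) and the other CKIs at 0.24.

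**Figure D1:**
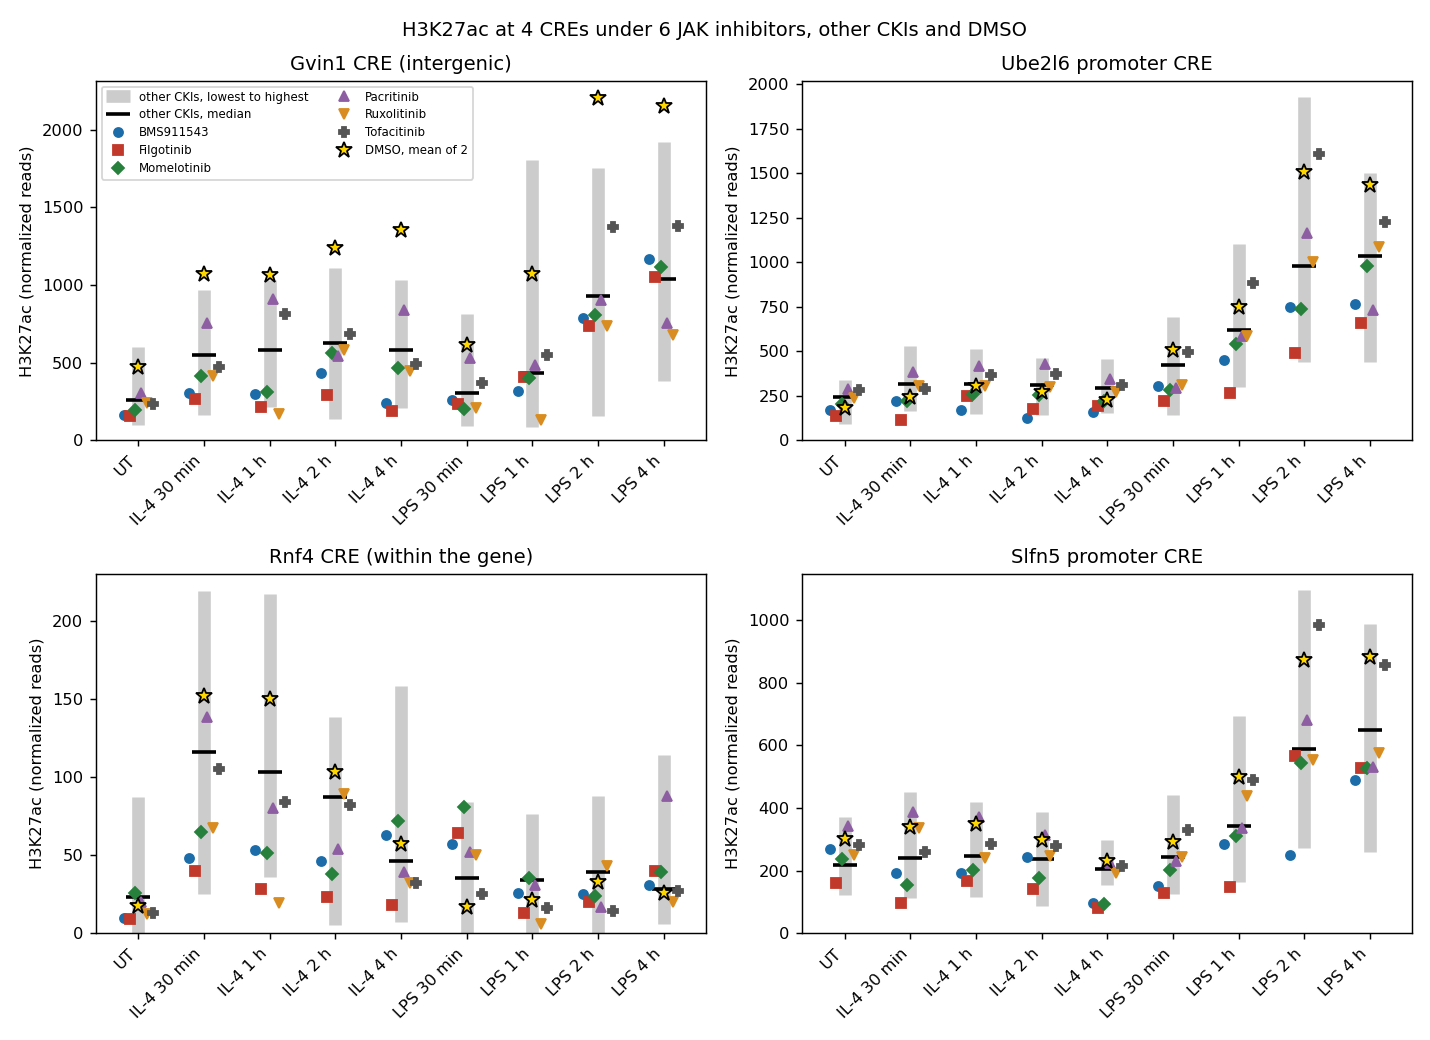
H3K27ac at the named CREs by member and condition. The vertical axes give normalized reads, the horizontal axes the stimulus and time, colored symbols the 6 JAK inhibitors, stars the mean of the 2 DMSO libraries, gray bars the range and black dashes the median of the other CKIs. At the Gvin1 element 4 of the members sit between 170 and 311 normalized reads at 1 h of IL-4.

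At single times the calls against other CKIs were 0 in UT, 0 at 30 min, 19 at 1 h, 0 at 2 h and 1 at 4 h of IL-4, all of them lower, and 0 at 30 min, 0 at 1 h, 5 at 2 h and 0 at 4 h of LPS, the 5 also lower. The 19 CREs were 0.0321% of those tested at that time, and the single CRE at 4 h 0.00169%. At an unadjusted p under 0.05, 0.878% of all CREs were lower and 0.102% higher in UT. Under IL-4 the shares lower and higher were 2.61% and 1.1% at 30 min, 4.97% and 1.05% at 1 h, 2.37% and 1.09% at 2 h, and 1.45% and 2.72% at 4 h. Under LPS they were 1.2% and 2.04% at 30 min, 5.16% and 0.899% at 1 h, 3.95% and 1.63% at 2 h, and 0.522% and 5.88% at 4 h. Beyond the Rnf4 and Gvin1 elements they included an element 1415 bases from the start of Chil4, a chitinase-like protein made by macrophages in response to IL-4, and the promoter of Cd53, a leukocyte tetraspanin. These and the other CREs called at single times were named after their values had been seen. The Chil4 element held 32 normalized reads with BMS911543, 0 with Filgotinib, 23 with Momelotinib, 50 with Pacritinib, 9 with Ruxolitinib and 46 with Tofacitinib at 1 h, against 89 and 110 in DMSO and a median of 70 in the other CKIs. Its difference was -1.51 (SE 0.29, adjusted p = 0.0216), with 6 of 6 members lower than the others of their run, while at 4 h it was 0.02.

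The Cd53 promoter held 201 normalized reads with BMS911543, 205 with Filgotinib, 303 with Momelotinib, 664 with Pacritinib, 196 with Ruxolitinib and 491 with Tofacitinib at 1 h of IL-4. The difference was -0.62 (SE 0.13, adjusted p = 0.0333), and Pacritinib was above the others of its run. A distal CRE 136563 bases from Gvin1 (-1.15, adjusted p = 0.0333), the promoter of the demethylase-related gene Jmjd1c (-0.58, adjusted p = 0.0333) and elements nearest Klf6, Zeb2, Trps1, Smc4, Dcun1d5 and Arhgap6 were among the rest. In 5 of the 19 elements, those nearest Bin1, Gm9733, 4930474N05Rik, Klf6 and the Gm11146 promoter, BMS911543 and Filgotinib had equal differences because both were listed at 0, so the size there depends on the added 5. The 19 calls rested on particular members: 0 CREs were called without Ruxolitinib, 1 without Momelotinib, 2 without Filgotinib and 6 without BMS911543, while 96 were called without Pacritinib and 104 without Tofacitinib. After quantile normalization 4 were called.

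At 4 h of IL-4 the single call was the promoter CRE of Slfn5 (chr11:82951262-82953826), a Schlafen family member induced by interferon. In the RefSeq promoter table of GRCm38.p6, the 300-base promoters of Ube2l6 and of the ISGs Oasl2 and Cmpk2 held 0 ISRE and 0 STAT matches. That of Slfn5 held 1 ISRE, and a stretch before its start is shown with the ISRE in capitals, 155 bases before the start.
Slfn5 promoter, chr11:82951887-82951976, plus strand: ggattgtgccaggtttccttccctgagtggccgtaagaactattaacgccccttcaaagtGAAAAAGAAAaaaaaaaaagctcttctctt
The promoter held 95 normalized reads with BMS911543, 79 with Filgotinib, 94 with Momelotinib, 225 with Pacritinib, 191 with Ruxolitinib and 214 with Tofacitinib, against 217 and 246 in DMSO. The 49 other CKIs ran from 154 to 299, so 3 members lay below all of them in normalized reads and 3 lay inside their range. The difference was -0.58 (SE 0.11, adjusted p = 0.0414), and the call was lost when BMS911543 or Filgotinib was left out. In UT the same promoter held 159 to 342 normalized reads with the members and the difference was 0.03.

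Most ISG promoters lay slightly below the other CKIs under IL-4. Of 40 ISGs, 36 had a promoter CRE, and 34 of these were below 0 relative to the other CKIs under IL-4, with a median log2 difference of -0.13 beside 0.03 over all promoter CREs. At an unadjusted p under 0.05, 16 of the 36 (44.4%) were lower and 0 higher, beside 1.64% of 12976 promoter CREs and 3.23% of all CREs lower. None of the 36 passed after adjustment over all CREs. The lists were chosen with earlier results of these data known, so these counts are a description. Macrophage markers had a median of 0.06 in the same comparison, with 0 of 8 lower at that p.

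The lowest p values among the ISGs belonged to Rtp4, an interferon-induced receptor chaperone (-0.26, SE 0.06, adjusted p = 0.165), Usp18, the protease that removes ISG15 and dampens interferon receptor signaling (-0.23, SE 0.06, adjusted p = 0.189), and Slfn5 (-0.29, SE 0.07, adjusted p = 0.253). The others of the 16 were Oasl2, Oasl1 and Oas1a of the oligoadenylate synthetase family, the nucleotide kinase Cmpk2, Gbp2, Gbp5 and Irgm1 of the interferon-induced GTPases, Ifit1, Ifit2 and Ifit3, which bind viral RNA, the nucleic acid sensor Zbp1, Trim30a, and Irf9, a DNA-binding partner of STAT2. Their differences lay between -0.25 for Ifit3 and -0.13 for Irgm1. The 2 ISGs above 0 were Ly6e (0.06) and Irf1 (0.01).

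At the Rtp4 promoter CRE (chr16:23609093-23612324) the IL-4 average was 256 normalized reads with BMS911543 and 227 with Filgotinib against 345 in their run, 317 with Momelotinib against 362, 381 with Ruxolitinib against 425 and 536 with Tofacitinib against 653. Pacritinib was at 664 against 653. DMSO was at 643 and 623, and 4 of 6 members lay below every other CKI of their run. At the Usp18 promoter CRE (chr6:121245060-121247959) BMS911543 was at 153 and Filgotinib at 206 against 228, Momelotinib at 177 against 211, Ruxolitinib at 185 against 216, Tofacitinib at 266 against 321 and Pacritinib at 326 against 321. Both promoters thus put Pacritinib at the level of the other CKIs and the remaining members below it. BMS911543 was the lowest of 53 CKIs at Usp18, and Filgotinib the lowest at Slfn5.

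By member, the median over the 36 ISG promoters under IL-4 was -0.23 for Tofacitinib, -0.17 for Filgotinib, -0.10 for Momelotinib, -0.08 for BMS911543, -0.07 for Ruxolitinib and -0.02 for Pacritinib. Tofacitinib was the second, Filgotinib the third, Momelotinib the fourth, BMS911543 the sixth, Ruxolitinib the eighth and Pacritinib the 19th lowest of 53 CKIs, and the other 47 ran from -0.35 to 0.16. With Tofacitinib 97.2% of the ISG promoters were below the others of the run, and with Pacritinib 63.9%. Tofacitinib and Pacritinib came from the same run and had like contrasts under IL-4 (34.7 and 32.4), but their concentrations differed. Without a term for the run only 3 of the ISGs were lower at that unadjusted p, and the count was 11 without Filgotinib and 10 without Tofacitinib.

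**Figure D2:**
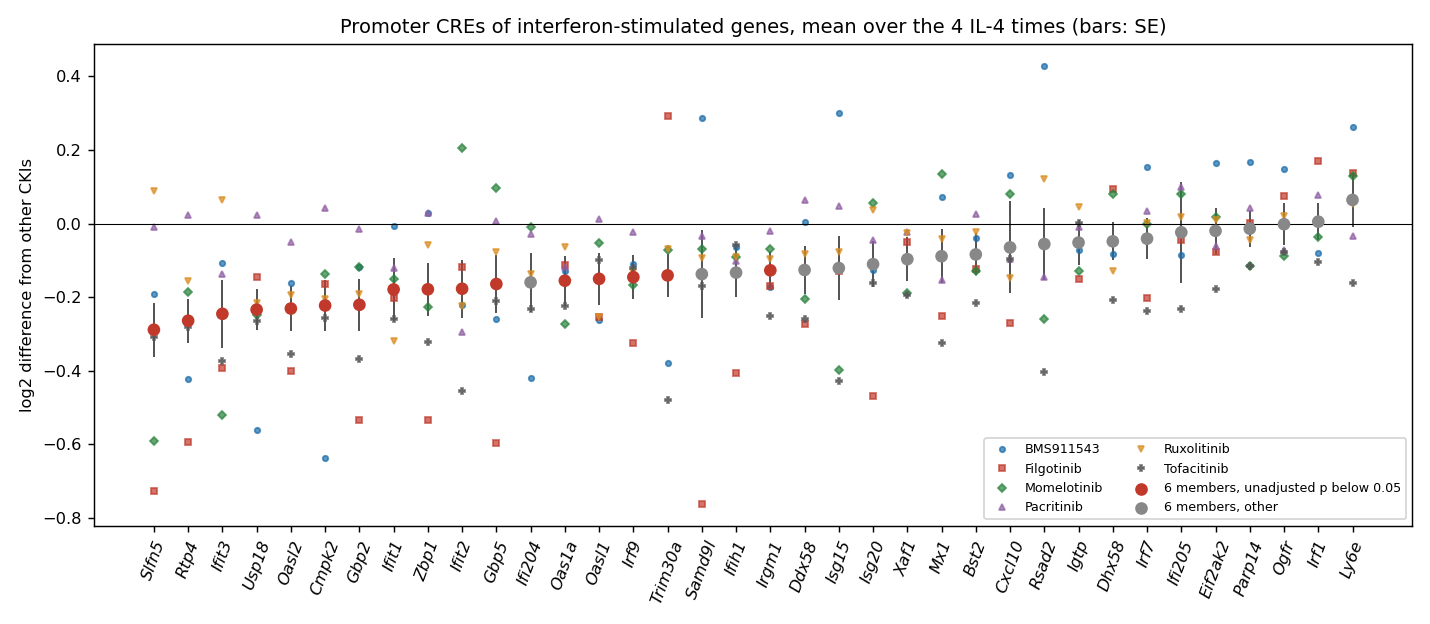
Log2 difference of ISG promoter CREs under IL-4, averaged over 4 times, between each JAK inhibitor and the other CKIs of its run. The horizontal axis lists the genes, small colored symbols are members, large dots the 6 members together with their SE (red at an unadjusted p under 0.05), and the line marks 0. At Rtp4 the members run from -0.59 for Filgotinib to 0.02 for Pacritinib.

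ISG promoters also lay mostly below the other CKIs before stimulation. In UT 33 of the 36 were below 0, with a median of -0.09 beside -0.04 over all CREs. Of the 36, 4 (Oasl2, Trim30a, Rtp4 and Isg15) were lower at an unadjusted p under 0.05, 11.1% beside 0.594% of promoter CREs. The member medians were -0.17 for Momelotinib, the lowest of 58 CKIs, -0.15 for Tofacitinib, -0.12 for Filgotinib, -0.07 for Ruxolitinib, -0.05 for Pacritinib and -0.02 for BMS911543. Once the UT level of each compound was taken off, the median of the list under IL-4 was -0.02, with 20 of 36 below 0, so no shift of the response itself was detectable for the list. No CRE was called for the IL-4 or LPS response over UT in any direction by limma. At an unadjusted p under 0.05 there were 268 lower (0.453%) and 762 higher (1.29%) CREs for the IL-4 response, and 245 (0.414%) and 2435 (4.12%) for the LPS response. For the IL-4 minus the LPS effect there were 3712 (6.27%) and 826 (1.4%), with 0 called.

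IL-4 and STAT6 target genes lay closer to 0 than the ISGs. Of 30 genes, 23 had a promoter CRE, and 17 of these were below 0 under IL-4, with a median of -0.05 beside 0.03 over all promoter CREs. At an unadjusted p under 0.05, 4 were lower (17.4%), beside 1.64% of promoter CREs. The 4 were Cish, a STAT-induced inhibitor of cytokine signaling (-0.21), the arginine transporter Slc7a2 (-0.20), the transcription factor Tfec (-0.16) and Pdcd1lg2, which encodes the checkpoint ligand PD-L2 (-0.15), and none passed after adjustment. Cish held 210 normalized reads with Filgotinib against 297 in its run and 273 with Tofacitinib against 368, while the other 4 members stood at 87.2% to 98.7% of their runs. The promoter of Arg1, the arginase that marks IL-4-treated macrophages, differed by -0.07 and that of the feedback inhibitor Socs1 by -0.02, neither at an unadjusted p under 0.05. Filgotinib (-0.12) and BMS911543 (-0.12) had the lowest medians over the 23 promoters among the members.

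The genes of the JAK-STAT pathway itself did not shift in their median. Their 31 promoter CREs had a median of 0.00 under IL-4, and 3 were lower at an unadjusted p under 0.05, beside 1.64% of promoter CREs. The 3 were Cish, Stat2 (-0.18), part of the interferon-activated complex that binds the ISRE, and Jak2 (-0.12). Jak1 (0.02), Jak3 (0.02) and Tyk2 (-0.09) did not pass even that unadjusted p. The promoter of Ifnb1, which encodes interferon-beta, differed by 0.09 under IL-4 and -0.01 under LPS. Of 25 NF-kB targets, 0 were lower and 1 was higher (Tlr2, 0.12), beside 3.52% of promoter CREs higher at that p, with a median of -0.02.

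**Figure D3:**
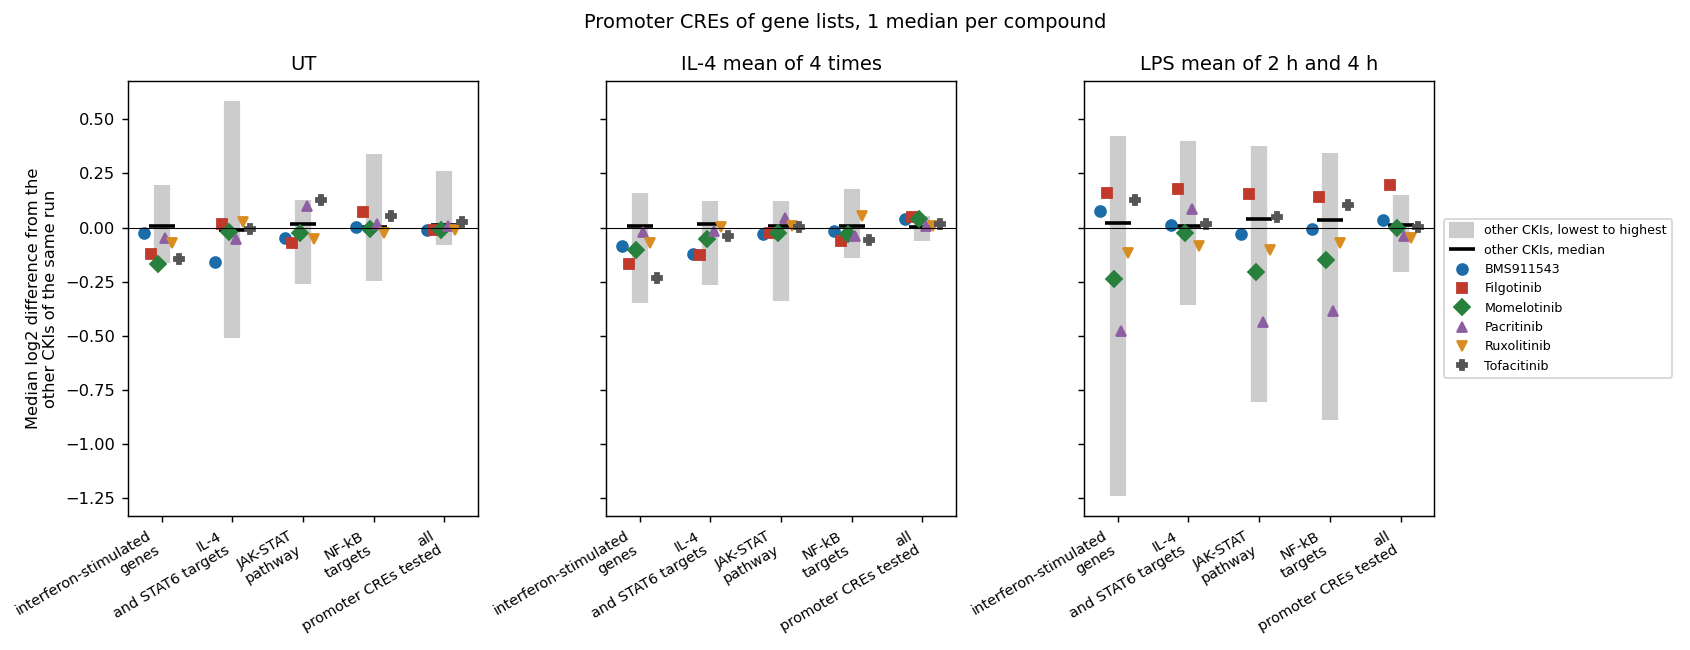
Median log2 difference over the promoter CREs of each gene list between a JAK inhibitor and the other CKIs of its run, in UT, under IL-4 and under LPS. Colored symbols are the members, gray bars the range and black lines the median of the other CKIs. Under IL-4 all 6 members lie below 0 for ISGs, from -0.23 to -0.02, while under LPS they range from -0.48 for Pacritinib to 0.16 for Filgotinib.

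Across CREs grouped by their response in DMSO, the share that was lower at an unadjusted p was highest among the IL-4-induced ones and also above that of all CREs among the LPS-induced ones. In DMSO the IL-4 time course changed 11611 of 47018 CREs (24.7%), 6415 of them upward, and LPS changed 27127 of 50697 (53.5%), 14680 upward (limma F-test, adjusted p under 0.01 and a log2 change over 1). Of the 6415 IL-4-induced CREs, 861 (13.4%) were lower with the JAK inhibitors under IL-4 at an unadjusted p under 0.05 and 8 higher, beside 3.23% and 2.21% of all CREs, and their median was -0.07. The member medians were -0.24 for Filgotinib, -0.09 for Tofacitinib, -0.06 for BMS911543, -0.05 for Ruxolitinib, -0.03 for Pacritinib and 0.04 for Momelotinib, whose 4 h library had the lowest contrast. Of the 8728 CREs that LPS induced with a peak at 2 h or 4 h, 662 (7.58%) were lower under IL-4 with a median of -0.06, and of the 5944 with a peak at 30 min or 1 h, 244 (4.10%) with a median of -0.03. Their member medians were below 0 in 5 of 6 members in both groups, as for the IL-4-induced CREs. In UT the IL-4-induced CREs had a median of -0.07 as well, beside -0.04 over all CREs. CREs that IL-4 lowered in DMSO had a median of 0.04. Contrast under IL-4 was 15.6 for Filgotinib against 11.8 in its run and 20.3 for Momelotinib against 23.5, and its part in these shifts was not tested.

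Under IL-4 the lower CREs held several of the motifs more often than the higher CREs, which were more often at promoters. Of the 1911 CREs lower at an unadjusted p under 0.05, 40.3% held a motif of STAT6 spacing, 38.0% a STAT motif and 24% an ISRE. Of the 1309 higher CREs, 16.8%, 21.1% and 10.3% did, and the shares over all CREs lay between. The AP-1 letters TGANTCA went the same way, in 39.7% of the lower CREs, 36.1% of all and 29.2% of the higher ones, whereas the PU.1 letters were in 72.1%, 71.9% and 74.3%. Promoter CREs made up 213 of the 1911 lower and 457 of the 1309 higher CREs. Over all promoter CREs, STAT6 spacing was in 19.3%, a STAT motif in 21.6%, an ISRE in 11.1% and the AP-1 letters in 19.9%, and the part of location in these shares was not tested. Under LPS an ISRE was in 27% of the 946 lower CREs (1.6% of all), 12.7% of the 2300 higher ones (3.89%) and 14.5% of all, whereas STAT6 spacing was in 24.7%, 24.9% and 25.1%. Among the 420 CREs called lower for Filgotinib under IL-4, 45.2% held STAT6 spacing, 36.2% a STAT motif and 21.4% an ISRE. Among the 186 called lower for BMS911543 the shares were nearer those of all CREs, at 32.3%, 30.6% and 17.2%. In RefSeq promoters of 300 bases an ISRE was found in 3.44% of 32851, and in 18 of the 30 ISG promoters that were matched.

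**Figure D4:**
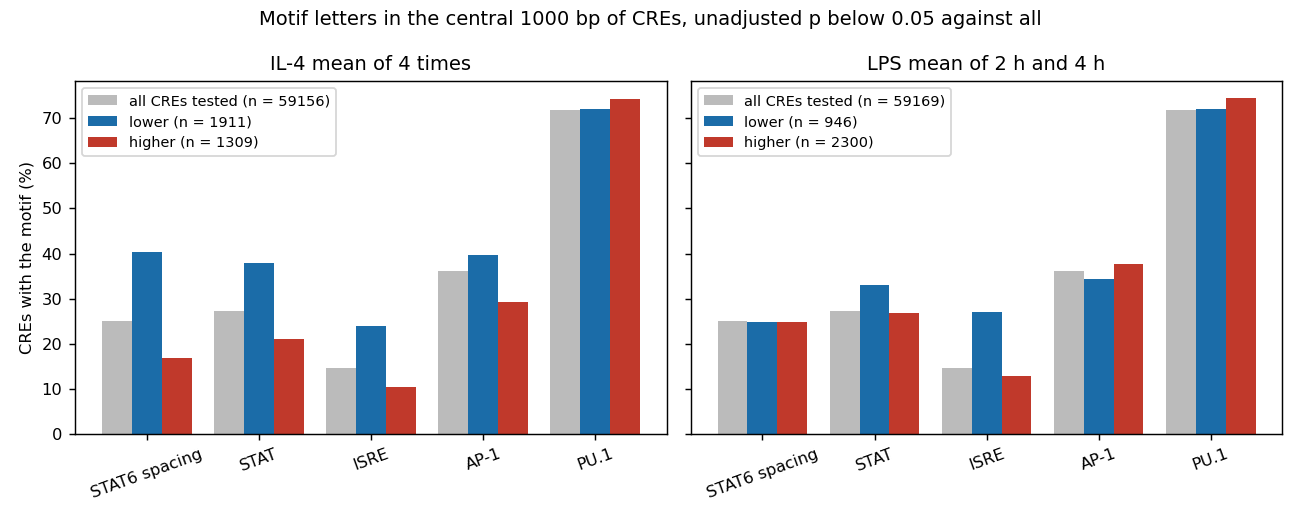
Share of CREs with each motif in their central 1000 bp, in percent, for CREs lower (blue) or higher (red) with JAK inhibitors at an unadjusted p under 0.05 and for all CREs tested (gray). Under IL-4 the blue bar for STAT6 spacing reaches 40.3% over a gray bar of 25.1%, and under LPS these bars are at 24.7% and 25.1%.

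Under LPS, averaged over 2 h and 4 h, 1 CRE was lower and 1 higher with the JAK inhibitors (0.00338% of 59169). The lower one was an intronic element of Rbbp8, which encodes the DNA end resection factor CtIP (chr18:11645071-11646726, -1.40, SE 0.27, adjusted p = 0.0366). At 2 h it held 0 normalized reads with BMS911543, 7 with Filgotinib, 24 with Momelotinib, 68 with Pacritinib, 72 with Ruxolitinib and 219 with Tofacitinib, against 197 and 231 in DMSO and a median of 124 in the other CKIs. Tofacitinib was thus at the DMSO level and 3 members near 0. At 4 h Filgotinib was at 0, Pacritinib at 59 and BMS911543 at 154 against a median of 161. Other CKIs also reached 0 at 4 h, and the size of the difference depends on the added 5. Leaving out BMS911543, Filgotinib or Momelotinib left 0 CREs called.

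The higher CRE was an intergenic element on chromosome 12 (chr12:32427278-32428826), 48574 bases from the start of Ccdc71l. It held 105 to 145 normalized reads with the members at 2 h and 94 to 127 at 4 h, against 89 and 87, and 59 and 58, in DMSO, and medians of 97 and 78 in the other CKIs. All 6 members were above both DMSO libraries at both times. The difference was 0.65 (SE 0.12, adjusted p = 0.028), from 0.31 for Pacritinib to 1.04 for BMS911543. In DMSO the element peaked at 30 min of LPS with 195 and 229.

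At 2 h of LPS alone 5 CREs were lower (0.00845%). The element with the smallest adjusted p, 8984 bases from Gnb1, a G protein beta subunit, held 12 normalized reads with BMS911543, 13 with Filgotinib, 30 with Momelotinib, 31 with Pacritinib, 32 with Ruxolitinib and 32 with Tofacitinib. DMSO was at 43 and 51, and the other CKIs had a median of 63 and a lowest value of 13. The difference was -1.25 (SE 0.21, adjusted p = 0.00398), from -1.89 to -0.90 over the members, and at 4 h it was 0.02. An element 19573 bases from Coq2, a coenzyme Q biosynthesis enzyme, was induced by LPS in DMSO from 68 and 61 to 262 and 234 at 2 h. It held 75, 39, 109, 251, 162 and 232 normalized reads in the same order of members, so Pacritinib and Tofacitinib were at the DMSO level, and its difference was -0.70 (SE 0.14, adjusted p = 0.0491). The others were the Myl2 promoter (-1.20), the Rbbp8 element and an intronic element of Gorasp2 nearest Gm26558 (-1.43). The Gnb1 element holds 0 STAT, 0 STAT6 spacing and 0 ISRE matches, and the Ccdc71l element, which was higher, holds 1 STAT match. The Coq2 element holds an ISRE on the minus strand, in capitals, 293 bases from its centre, and is shown as the LPS-induced member of the 5.
Coq2 element, chr5:100643967-100644086: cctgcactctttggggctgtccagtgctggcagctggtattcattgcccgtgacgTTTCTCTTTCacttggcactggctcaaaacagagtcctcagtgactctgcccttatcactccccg

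ISG promoters under LPS did not differ from the other CKIs at a detectable level. Although 35 of 36 were below 0, with a median of -0.10, 0 had an unadjusted p under 0.05 beside 2.4% of promoter CREs. By compound, the other CKIs, with Apitolisib, TG100572 and Midostaurin among them, had medians from -1.24 to 0.42. The member medians ran from -0.48 for Pacritinib and -0.24 for Momelotinib through -0.12 for Ruxolitinib to 0.08 for BMS911543, 0.13 for Tofacitinib and 0.16 for Filgotinib, and without Pacritinib the list median was -0.01. Contrast relative to the others of the run (log2) was also lowest for Pacritinib and highest for Filgotinib, at -1.80 for Pacritinib, -0.56 for Momelotinib, -0.51 for Ruxolitinib, 0.20 for Tofacitinib, 0.70 for BMS911543 and 0.96 for Filgotinib, and the list median was -0.03 with contrast as a covariate and -0.03 after quantile normalization. At 30 min of LPS 3 of the 36 were lower at that unadjusted p beside 1.71% of promoter CREs, and at 1 h 4 were, beside 1.87%. At 4 h the median over all CREs was 0.15 and it was 0.01 after quantile normalization, so differences at that time are relative to a scaling-dependent baseline.

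When each member was set against the other CKIs of its run, most calls came from BMS911543 and Filgotinib, which under LPS depended on the scaling. Under IL-4 BMS911543 had 186 CREs lower and 9 higher (0.33%), and Filgotinib 420 lower and 67 higher (0.823%). Momelotinib, Pacritinib, Ruxolitinib and Tofacitinib had 0 called (806, 132, 127 and 265 at an unadjusted p under 0.05 in limma). After quantile normalization the calls of BMS911543 were 285 lower and 80 higher. Under LPS BMS911543 had 620 lower and 24 higher (1.09%), Filgotinib 69 lower and 5 higher (0.125%), and Momelotinib 1 lower (0.00169%), with 0 for the rest (15201, 578 and 138 at an unadjusted p under 0.05 for Pacritinib, Ruxolitinib and Tofacitinib). After quantile normalization the LPS calls were 105 lower and 16 higher for BMS911543, 70 and 5 for Filgotinib, and 87 and 10 for Pacritinib, which then had more than Filgotinib. The other 47 CKIs had a median of 0 calls, from 0 to 24802 under IL-4 and from 0 to 37641 under LPS. Within the run of BMS911543 and Filgotinib the other CKIs also had calls, from 40 (AZD8186) to 1424 (Omipalisib) under IL-4. Under LPS they had from 0 (Afatinib) to 1810 (AZD2014). By number of calls Filgotinib ranked 4th and BMS911543 10th of 53 CKIs under IL-4, and 13th and 5th under LPS. BMS911543 and Filgotinib share their run and its other CKIs, and this run was the shallowest. Each compound is 1 value here, and the spread comes from the other CKIs of all runs, which differ in depth.

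**Figure D5:**
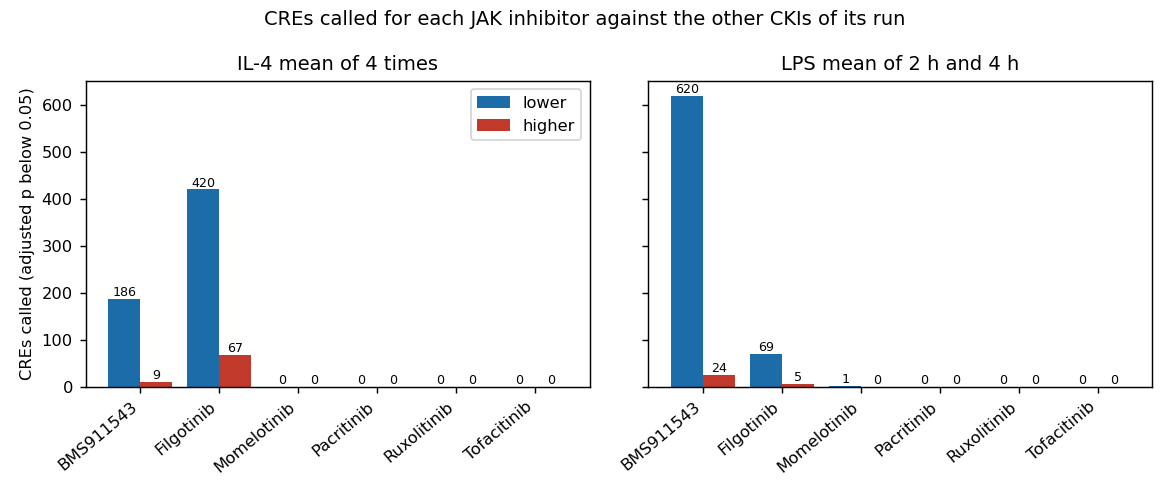
Number of CREs called for each JAK inhibitor against the other CKIs of its run, lower in blue and higher in red, under IL-4 and LPS. Filgotinib has the tallest bar under IL-4 (420 lower) and BMS911543 under LPS (620 lower).

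The CREs with the lowest called differences for BMS911543 under IL-4 were nearest Dab2ip (-1.92), Sptssa (-1.91) and Dad1 (-1.76). For Filgotinib they were an element in an intron of Rnf13 nearest Pfn2 (-2.49), an intronic element of Gab2, an adaptor of cytokine receptors (-2.43), and one overlapping Dnajc19 (-2.27). The Filgotinib elements near Pfn2 and Gab2 were each below the run in 5 of 6 members, Pacritinib being above it, while 3 of 6 were below it at Dab2ip. Under LPS those of BMS911543 were nearest Pdia4 (-4.08), Hrh1 (-4.02) and 4930467E23Rik (-3.74), and those of Filgotinib were the Rbbp8 element (-3.71) and others nearest Rtn4r (-2.98) and Suclg2 (-2.93). These sizes depend on the settings: over 11 of them Pdia4 ran from -6.08 to -2.66 and was called in 9, Hrh1 from -6.24 to -2.31 in 7, and 4930467E23Rik from -4.99 to -2.53 in 10. Of the Filgotinib elements Suclg2 ran from -4.33 to -1.66 and was called in 9 of 11, and Rtn4r from -5.05 to -1.52 in 5 of 10. At Pdia4 the second member of the run, Filgotinib, stood at 2.51, the other way. The Momelotinib call overlapped an exon of Mgrn1, nearest Nudt16l1 (-1.89).

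ISG promoters were among the calls of both compounds under IL-4. BMS911543 was called lower at Usp18 (-0.56, SE 0.13, adjusted p = 0.0242). Filgotinib was called lower at Slfn5 (-0.73, SE 0.16, adjusted p = 0.009) and Rtp4 (-0.59, SE 0.14, adjusted p = 0.0181). The promoter of Ifi27, an interferon-induced mitochondrial protein outside the list, was called for Filgotinib at -0.90 (SE 0.16, adjusted p = 0.000968).

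Few single CREs lay well below the run in most members. Under IL-4, 4 CREs lay more than 0.5 log2 below the run in at least 5 of 6 members (0.00676%), none in all 6, and under LPS 2 did (0.00338%). The former were an intronic element of Hdac9, which encodes a class IIa histone deacetylase (-0.84, -1.10, -0.25, -0.59, -0.69 and -0.52 in the order given above), an intronic element of Uba6 nearest Stap1, and elements nearest Tusc1 and Vmn2r41. At the elements nearest Tusc1 and Vmn2r41 Momelotinib went the other way, at 0.65 and 0.74. Those under LPS were an intronic element of Rel, an NF-kB subunit (-1.45, -0.69, -0.54, -0.64, -0.64 and -0.16), and an element nearest Adgrg6. None of these 6 lowered elements passed the test of the JAK inhibitors together. The same cutoff above the run was met under IL-4 by 1 CRE in all 6 members and by 0 in exactly 5. Under LPS it was met by 25 CREs in exactly 5 members and by 0 in all 6.

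The comparisons of the JAK inhibitors and of the other CKIs with DMSO use the same 2 DMSO libraries per condition. Under IL-4 2642 CREs were lower and 14975 higher than in DMSO (29.8% called), beside 2924 and 24350 for the other CKIs. Without DMSO library 1 or 2, 92 and 14 CREs were called for the JAK inhibitors. After quantile normalization the split for the JAK inhibitors was 942 lower and 491 higher. Under LPS 1766 were lower and 11352 higher (22.2%), beside 1823 and 13304. Without DMSO library 1 or 2 the count was 20 and 4, and quantile normalization left 14 lower and 42 higher. Against DMSO under IL-4 the Gvin1 element stood at -1.48 with the JAK inhibitors and -0.96 with the other CKIs, the Rnf4 element at -1.02 and -0.38, and the Usp18 promoter at -0.67 and -0.48. With 2 DMSO libraries per condition and their higher contrast, the part of contrast in these differences cannot be told apart from that of the compounds.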

How the data were processed

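H3K27ac ChIP-seq libraries of BMDMs were compared. The deposited values, held here as scores, are rounded normalized read counts at CREs: per the study's methods and the labels, the authors trimmed single-end reads to 51 bases, mapped them to mm10 (Bowtie, SAMtools), counted them around ATAC-seq summits and scaled libraries on invariant peaks. Raw counts were not used here, so no count model was fitted. A rounded scale hides the counting error of shallow libraries, and intervals for counting error were not computed.

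Values were analysed as log2(value + 5) in CREs with a mean of at least 10, with limma 3.58.1 in R 4.3.3 (moderated fit with a mean-variance trend) and Benjamini-Hochberg adjustment over all CREs, with 0.05 as the threshold. The JAK inhibitors were compared with the other CKIs with a term for the run, read from neighbouring table columns. Means over times used compounds with every time, so Apatinib, Lenvatinib, Losmapimod, Talmapimod and XL413 dropped out under IL-4. Libraries with the suffix b were averaged with their partners. A promoter CRE lies within 1 kb of a transcription start.

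The named genes were the called CREs with the lowest or highest difference that lay on that side in at least 5 of 6 members, called promoter CREs of the gene lists, Ifnb1 and the JAK genes, and the 3 CREs with the lowest difference called for each member. Other genes were named after their values had been seen. Members and lists were chosen with earlier results of these data known. Library depth was estimated from the value of 1 read. On simulated data for the IL-4 average, all 6 members were lowered by the same amount. Of changes of 0.5 (log2) 60.5% were recovered among 59156 CREs, and of changes of 1 98.5%. These shares hold for even changes only, whereas the members differed in the data. For changes of 1, 42.5% were recovered for Filgotinib alone and 33% against DMSO. The LPS comparisons were not simulated. Alternatives were quantile normalization, other pseudocounts and filters, no run term, a contrast covariate and leaving out each member.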

Additional observations from a re-analysis of the deposited data

How the results depend on the processing

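The count of CREs called under IL-4 (3) was 0 without the run term, 7 with contrast as a covariate, 1 with a pseudocount of 1, 1 without Apitolisib and TG100572, 1 when an absolute log2 difference over 0.5 was asked for and 0 without the low-contrast libraries, an alternative chosen after the data were seen, like the contrast covariate for the gene lists. Leaving out a member gave 0 (without Filgotinib) to 8 (without Pacritinib). Under LPS (2) it was 0 with quantile normalization, 0 without the run term, 5 with contrast, 1 with a pseudocount of 20 and 1 without the low-contrast libraries, and 0 (without BMS911543, Filgotinib or Momelotinib) to 5 (without Tofacitinib) without a member. At IL-4 30 min, 0 to 4 were called without a member. At IL-4 1 h (19) the count was 4 with quantile normalization, 4 without the run term, 48 and 2 with pseudocounts of 1 and 20, and 0 to 104 without a member. At IL-4 4 h (1) it was 3 with quantile normalization, 0 without the run term, 0 with contrast, 0 with a pseudocount of 20 and 0 to 1 without a member. At LPS 2 h (5) it was 3 with quantile normalization, 2 without the run term, 9 with contrast, 1 with a pseudocount of 20, 3 at a mean of at least 30, 2 without the libraries with the suffix b, and 0 (without BMS911543 or Filgotinib) to 19 (without Tofacitinib). At LPS 4 h (0) it was 1 with quantile normalization, 3 with contrast, 1 with a pseudocount of 1, 1 at a mean of at least 30 and 0 to 1 without a member. The IL-4 minus LPS effect gave 0 to 1 without a member. The cause of these changes was not tested.

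Without the run term the median of the JAK-STAT list turned from -0.0047 to 0.032 and that of the macrophage markers was 0.092. The median of the ISGs under IL-4 stayed below 0 in every alternative run. For BMS911543 under IL-4 (195) the counts were 365 with quantile normalization, 72 without the run term, 780 with contrast, 500 and 37 with pseudocounts of 1 and 20, and 525 with quantile normalization and contrast. For Filgotinib (487) they were 121 without the run term, 969 with contrast, and 856 and 225 with pseudocounts of 1 and 20. For Momelotinib (0) they were 3 with quantile normalization, 1 with contrast, 1 with a pseudocount of 1, 1 at a mean of at least 30 and 3 with quantile normalization and contrast, and for Ruxolitinib (0) 3 with quantile normalization, alone or with contrast. Under LPS BMS911543 (644) gave 121 with quantile normalization, 990 with contrast, 1712 and 16 with pseudocounts of 1 and 20, and 319 with quantile normalization and contrast. Filgotinib (74) gave 164 with contrast, 386 and 8 with these pseudocounts, 49 without the suffix b libraries and 143 with quantile normalization and contrast. Momelotinib (1) gave 3 with contrast, and 4 and 0 with these pseudocounts. Pacritinib (0) gave 97 with quantile normalization and 91 with contrast added, and Ruxolitinib (0) gave 1 with contrast, 1 with a pseudocount of 1 and 1 with quantile normalization and contrast.

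Against DMSO under IL-4 (17617) the count was 1433 with quantile normalization, 8260 with a pseudocount of 20, 10112 at a mean of at least 30, and 14 to 20297 when a member or a DMSO library was left out. Under LPS (13118) it was 56, 5959 and 6765 in the same order, and 4 to 18092 with a sample left out. Without DMSO library 1 or 2 the counts were 92 and 14 under IL-4 and 20 and 4 under LPS. Leaving out BMS911543 gave 9514 and Filgotinib 11066 under IL-4, and Pacritinib 6104 under LPS. The DMSO IL-4 time course (11611) gave 7569 with a pseudocount of 20 and 19669 at a log2 change over 0.5. With the replicate number as a replicate block the DMSO time courses gave 11611 and 27066 CREs. Same-numbered DMSO libraries did not deviate together, with correlations of -0.07 to 0.05 over 36 pairs of groups, so the main time courses took no pairing from the numbers. The comparisons with DMSO did average libraries of the same number over the times. Of the summary values 434 stayed within the replicate spread or within 1.5 times the count, 105 moved further and 1, the JAK-STAT median, changed sign. Among single CREs 573 kept their side of the threshold, 182 were no longer called and 3 were newly called. Estimated depths as low as 469412 reads limit what can be read from low CREs.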
